A study of Homo sapiens with 15 samples.

Results

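M303 and M379, both mutants of the transcription factor SOX9, were compared as 1 set with a further mutant, M228, in HT115, an established human colorectal cancer cell line. The comparison used 6 libraries (3 of M303 and 3 of M379) against the 3 libraries of M228, chosen by their labels, of 15 libraries in the series. The remaining 6 libraries, 3 with GFP and 3 with SOX9_WT (V5-tagged wild-type SOX9), served only to show levels. All 5 groups, the controls included, received doxycycline at 0.5 µg/ml for 24 h, which induced GFP, SOX9_WT or a V5-tagged SOX9 mutant. M303 is a truncated SOX9 by the series text, and the labels leave M228 and M379 unexplained. Duplicates are mentioned in the series text, whereas the labels list 3 libraries per group without saying that they came from separate cultures. The p-values therefore reflect library-to-library spread, which may be technical. Poly(A)-selected RNA was read by 150-base paired-end sequencing, and levels are given as CPM, the reads of a gene per 1e6 reads of its library after TMM scaling.

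SOX9 is a transcription factor with an HMG-box domain that binds DNA. In cartilage it switches on collagen genes, among them the chains of collagen IX. In the intestine it is found in crypt stem cells and Paneth cells, and the absorptive and mucus-secreting cells that leave the crypt carry less of it. The series title places SOX9 in a stem cell-like program that blocks intestinal differentiation in colorectal cancer.

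The cartilage collagen gene COL9A3 and the gut glutathione peroxidase gene GPX2 were higher with M303 and M379 than with M228. Lower were the netrin gene NTN4, the water channel gene AQP3, and ELFN2, CST6, PKIB, SERPINE2 and EHD2. In each of these 9 genes all 6 libraries of M303 and M379 lay on the same side of all 3 libraries of M228. The rule for naming called genes required this separation, CST6 aside, so it is not further evidence. In a model that compares libraries of the same replicate number, the oxidase genes DUOX2 and DUOXA2 were also lower. In that model 9 of 22 tested enterocyte genes were lower and 1 higher, and 6 of 17 crypt stem cell genes were higher and 1 lower, beside 3.03% of all genes lower and 2.32% higher. Without pairing, edgeR called 0 genes of either list, and the enterocyte median against M228 was -0.0365 for M303 and -0.381 for M379. Neither model called the stem cell genes LGR5 and PROM1. Both lists were written with earlier results of these data known. Similar shares were called with replicate number in other lists, such as MAPK output (42.1%) and proteases and kallikreins (41.7%), against 45.5% and 41.2% here.

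The 9 mutant libraries held 7291596 to 31704249 reads, and the exact permutation p for a difference between M303 with M379 and M228 was 0.179 for total reads, 0.69 for the share of mitochondrial reads and 0.464 for the share of ribosomal protein reads (two-sided, smallest possible 0.0119). M303 libraries held 21310924 to 31704249 reads, more than any of M228 (up to 18180807) or M379 (up to 17112863). Depth and mutant therefore cannot be told apart where M303 is compared alone. All 14 colorectal epithelial marker genes had reads in the 9 mutant libraries. Marker genes of fibroblasts summed to 5.27 to 8.39 CPM and those of endothelial cells to 1.56 to 2.96 CPM in the mutant libraries, with PDGFRA, CDH5, KDR and EMCN without a read in any of the 9. The leukocyte list was carried by LYZ, which gut epithelium also makes. Replicate 1 of each mutant stood apart from replicates 2 and 3.

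SOX9 (ENSG00000125398, chromosome 17, 72121020 to 72126416, plus strand) was read first, since its counts check the induction. It stood at 98.0, 101.3 and 158 CPM in the 3 GFP libraries and at 244, 210.1 and 186 CPM with SOX9_WT. With M228 it stood at 1900, 2029 and 2380 CPM, with M303 at 2948, 3035 and 3034 CPM and with M379 at 2030, 2329 and 2278 CPM. All 9 mutant libraries were above every GFP and SOX9_WT library, and counts per gene do not separate the induced from the endogenous transcript. M303 lay above M228 in every library, while M379 overlapped M228. The difference between M303 with M379 and M228 was 0.29 ± 0.094 on the log2 scale (adjusted p = 0.499, not called). With replicate number in the model it was 0.30 ± 0.062 (adjusted p = 0.00177), with 0.52 ± 0.071 for M303 minus M228 (adjusted p = 5.58e-06) and 0.076 ± 0.07 for M379 minus M228 (adjusted p = 0.636). The joint paired call was lost without M228 replicate 1 (adjusted p = 0.0505) or M228 replicate 2 (0.0625), and with 1 mean for the 6 libraries (0.0731).

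Of 15848 genes tested with edgeR's quasi-likelihood test, 10 (0.0631%) were called at an adjusted p under 0.05. Of these, 2 (0.0126%) were higher with M303 and M379 and 8 (0.0505%) were lower, of which 7 are described below, and 1100 genes had an unadjusted p under 0.05. Without M228 replicate 2 the count was 6, and without M303 replicate 1 it was 22. Libraries of the same replicate number deviated together from their group means in all 9 pairs (correlations of 0.19 to 0.603). Replicate 1 stood apart in each mutant, and a shift shared by those libraries alone could make the correlations at numbers 2 and 3 positive. Pairing at numbers 2 and 3 was therefore not shown separately. When replicate number was added to the model, 848 genes (5.35%) were called, 368 (2.32%) higher and 480 (3.03%) lower. All 10 genes called without it were among them, in the same direction. Of the 848, 599 differed by less than 0.5 on the log2 scale, and 31 were higher and 33 lower by at least 1. The paired count fell to 314 without M228 replicate 1, to 389 without M228 replicate 2 and to 527 without M379 replicate 2. Below, the paired model means the one with replicate number. Genes named from the paired model alone lie outside the naming rule and were picked with their values in view.

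**Figure D1:**
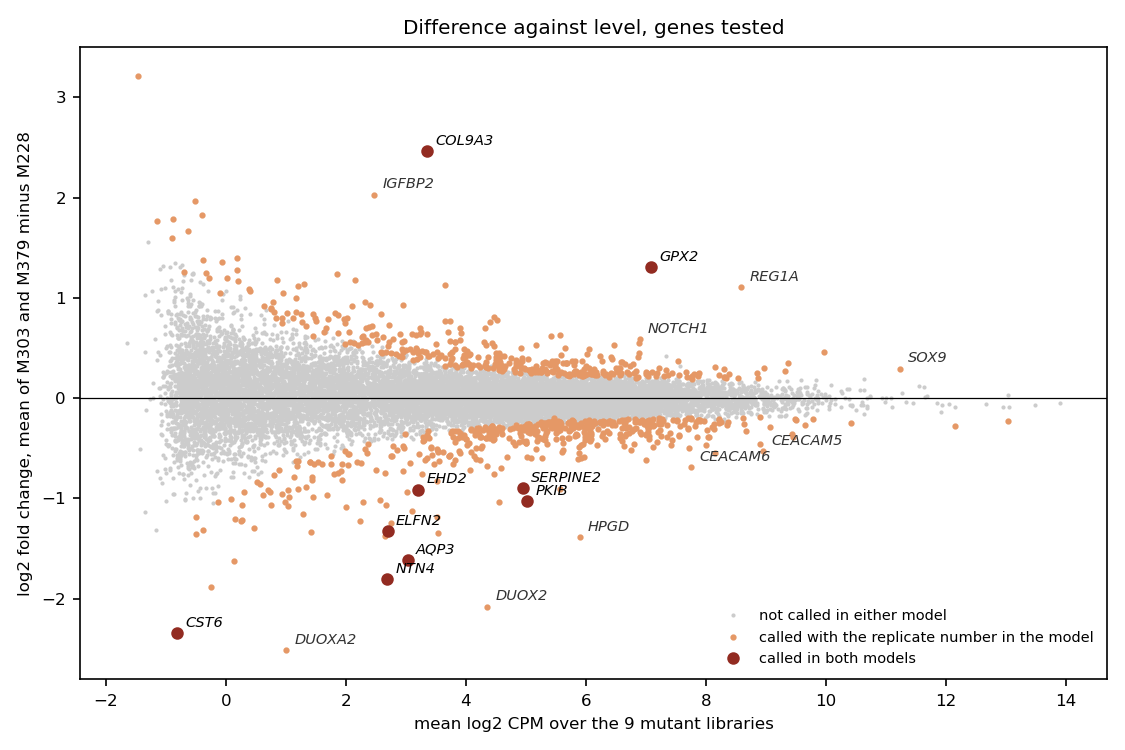
Each point is a gene of the 15848 tested: the x axis is its mean log2 CPM over the 9 mutant libraries and the y axis the log2 fold change of M303 with M379 against M228. The named genes called in both models (9 of the 10 are drawn) lie far from 0, at low to middle levels. Most of the 848 genes called in the paired model lie within 0.5 of 0.

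Of the 2 genes called higher, COL9A3 was low with M228, on 49, 22 and 62 reads, and GPX2 stood at 61.0 CPM or more in every library. COL9A3 (chromosome 20, 62816244 to 62841159, plus strand) encodes a chain of collagen IX, the collagen that coats cartilage fibrils. It stood at 3.14, 3.10 and 3.499 CPM with M228, against 15.1, 21.4 and 22.9 CPM with M303 and 11.6, 16.2 and 21.7 CPM with M379. The 6 libraries of M303 and M379 averaged 18.1 ± 4.51 CPM (SD, n = 6), and their lowest was well above the highest M228 library. The log2 difference was 2.46 ± 0.23 (adjusted p = 0.00205). M228 lay near the GFP libraries (1.53 to 3.08 CPM), and SOX9_WT gave 12.7, 5.90 and 5.64 CPM, its replicate 1 level with the lowest M379 library. GPX2, the selenium-dependent glutathione peroxidase of the gut lining, stood at 61.0, 79.3 and 84.0 CPM with M228, 134, 184 and 165 CPM with M303 and 185, 227.5 and 219 CPM with M379. M228 was thus below every other library of the series, since GFP ranged over 182 to 486 CPM and SOX9_WT over 202 to 276 CPM. The log2 difference of M303 and M379 from M228 was 1.30 ± 0.13 (adjusted p = 0.00244), and with all 15 libraries in 1 fit the adjusted p was 0.148.

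NTN4 (chromosome 12, 95657807 to 95791189, minus strand) encodes netrin-4, a laminin-related protein of basement membranes. Its level was 12.2, 15.5 and 16.3 CPM with M228, 4.96, 4.42 and 5.45 CPM with M303 and 3.02, 3.44 and 4.21 CPM with M379. The M303 and M379 libraries lay within the range of GFP (2.44 to 5.69 CPM) and below every M228 library. The log2 difference was -1.80 ± 0.15 (adjusted p = 0.000879).

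Promoter windows of GPX2 and NTN4 are shown because both genes were called and a window of each holds AACAAT, a core of the sequence that SOX proteins bind. The windows run from 250 bases before to 50 after the start of transcription in RefSeq (GRCh38.p14), are written 5′ to 3′ on the gene's strand, and mark the match (either strand) in capitals. The GPX2 window is chr14:64942696-64942995, minus strand, and its match begins at position -91 from the start. The NTN4 window shown is chr12:95791106-95791405, minus strand, with the match at position -248, and the other NTN4 window, chr12:95790715-95791014, holds neither motif searched.
GPX2: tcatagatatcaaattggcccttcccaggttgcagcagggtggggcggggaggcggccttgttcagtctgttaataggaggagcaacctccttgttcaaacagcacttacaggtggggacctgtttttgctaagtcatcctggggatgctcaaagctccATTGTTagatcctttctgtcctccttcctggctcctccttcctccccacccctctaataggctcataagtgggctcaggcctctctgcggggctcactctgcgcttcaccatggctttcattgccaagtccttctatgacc
NTN4: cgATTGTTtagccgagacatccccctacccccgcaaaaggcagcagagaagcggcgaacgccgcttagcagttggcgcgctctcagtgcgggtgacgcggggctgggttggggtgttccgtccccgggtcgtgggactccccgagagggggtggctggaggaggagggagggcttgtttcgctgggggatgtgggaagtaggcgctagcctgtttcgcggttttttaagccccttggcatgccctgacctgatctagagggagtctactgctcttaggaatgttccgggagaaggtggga
The table held windows for 7 of the 10 called genes, 11 windows in all, and none was used for COL9A3 or CST6. AACAAT was in 2 of the 11, and in 10.1% of all 35116 windows of 300 bases. A second SOX core, ACAAAG, was in 1 of the 11 (a PKIB window) and in 16.1% of all windows. Both were searched on both strands and counted separately.

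AQP3, a channel for water and glycerol, stood at 24.0, 15.4 and 12.7 CPM with M228, 5.10, 5.15 and 5.16 CPM with M303 and 8.78, 4.55 and 5.58 CPM with M379. The nearest libraries, M379 replicate 1 and M228 replicate 3, were still apart, and the log2 difference was -1.61 ± 0.22 (adjusted p = 0.0168). ELFN2, a membrane protein with leucine-rich repeats, stood at 12.6, 12.1 and 10.9 CPM with M228, 5.31, 4.77 and 4.92 CPM with M303 and 5.83, 2.99 and 4.69 CPM with M379. These M303 and M379 levels lay above those of GFP and SOX9_WT (0.956 to 2.20 CPM), so the gene stood at 3 separate levels. Its log2 difference from M228 was -1.32 ± 0.17 (adjusted p = 0.0143). CST6, which encodes the cysteine protease inhibitor cystatin E/M, was near the limit of detection. It had 8 to 24 reads per M228 library (1.13 to 1.54 CPM) and 3 to 7 reads per library of M303 and M379 (0.192 to 0.332 CPM), and 3 reads correspond to 0.0895 to 0.423 CPM in these libraries. Its log2 difference was -2.34 ± 0.29 (adjusted p = 0.0102), and it is named outside the rule because its mean level is low.

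PKIB, an inhibitor of protein kinase A, stood at 48.9, 61.9 and 46.4 CPM with M228, 32.6, 28.6 and 26.5 CPM with M303 and 21.8, 24.2 and 21.01 CPM with M379. M379 was lower than M303 in every library, and both were lower than M228, with a log2 difference of -1.03 ± 0.11 (adjusted p = 0.0025). SERPINE2, a secreted inhibitor of thrombin and plasminogen activators, stood at 45.5, 54.9 and 40.2 CPM with M228 and at 21.5 to 28.7 CPM over M303 and M379. GFP and SOX9_WT covered 20.3 to 29.8 CPM, so M228 alone stood high, and the log2 difference was -0.90 ± 0.11 (adjusted p = 0.00707). EHD2, an ATPase of caveolae, stood at 11.4, 14.7 and 15.9 CPM with M228, 9.55, 9.35 and 8.71 CPM with M303 and 6.30, 6.24 and 5.40 CPM with M379. The 3 mutants formed 3 steps without overlap, and M303 with M379 differed from M228 by -0.91 ± 0.13 (adjusted p = 0.0268).

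**Figure D2:**
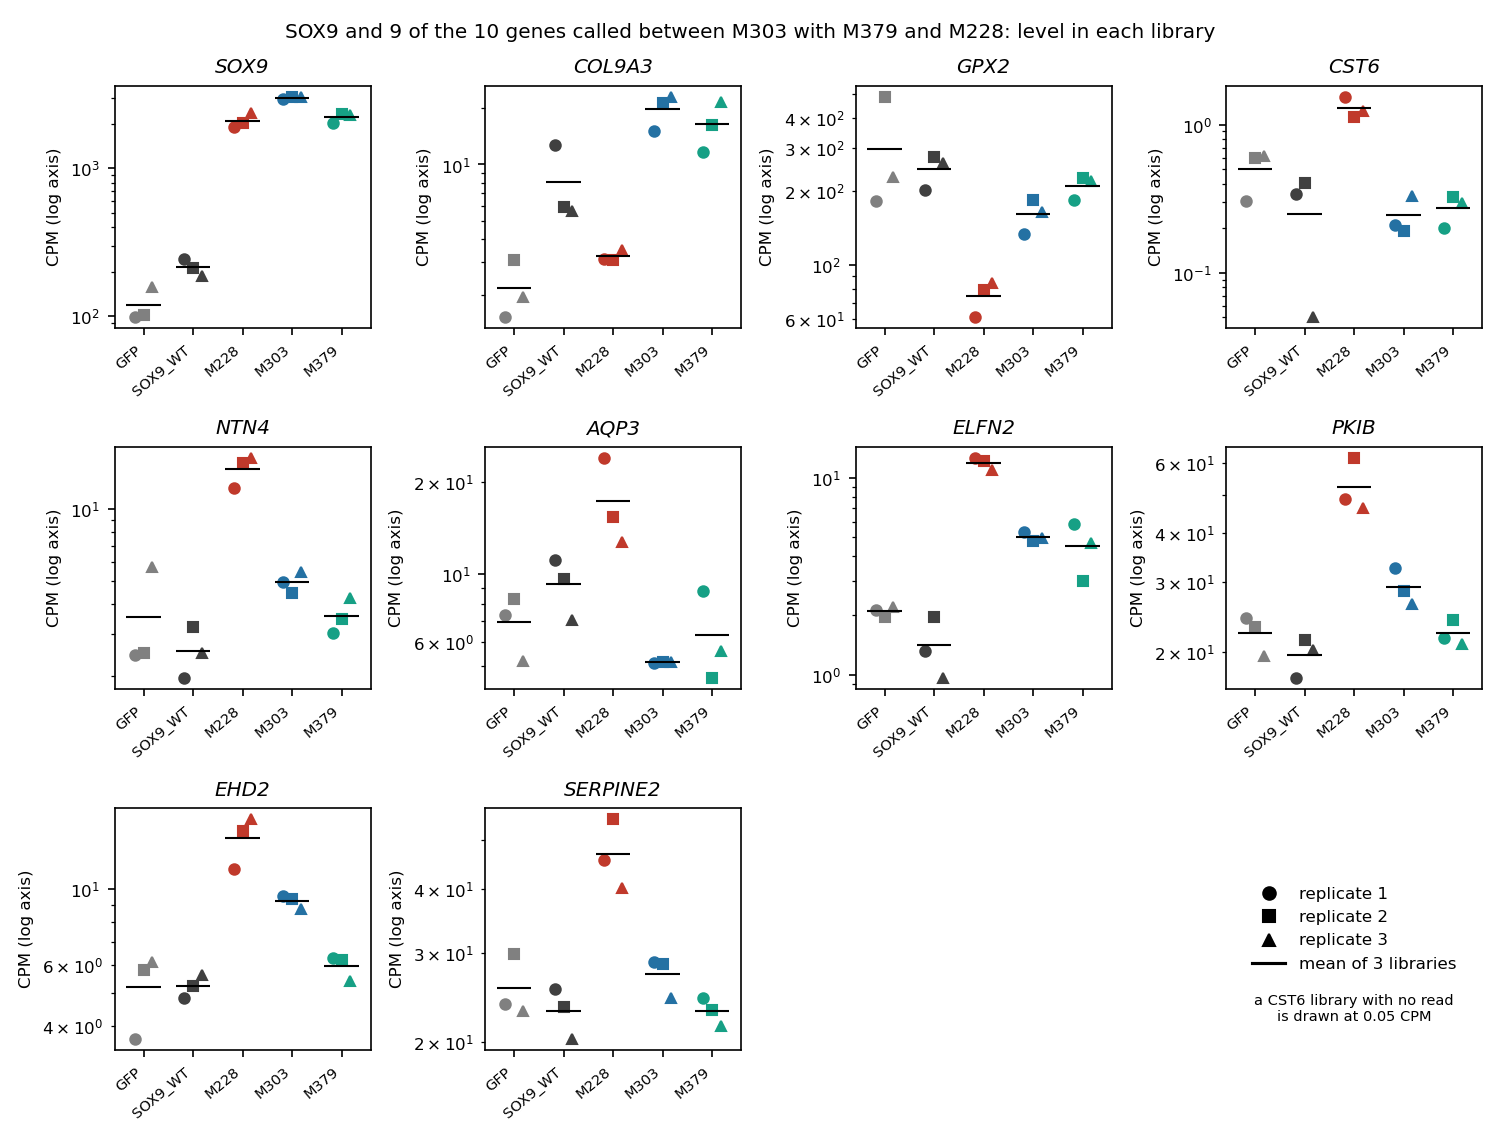
CPM on log axes (y) of SOX9 and 9 of the 10 called genes in each of the 15 libraries, by group (x), with symbols for replicate number and a line at the mean of 3 libraries. In each called gene the M303 and M379 points lie on 1 side of all M228 points, as for COL9A3, with 11.6 to 22.9 CPM against 3.10 to 3.499 CPM. The naming rule for called genes required this, CST6 aside.

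The paired model called all 10 again, with smaller adjusted p (GPX2 2.42e-16, COL9A3 9.53e-16, NTN4 1.35e-13, EHD2 8.38e-07). Without pairing, the calls of COL9A3, GPX2, NTN4 and PKIB held whichever of the 9 libraries was left out. SERPINE2 lost its call without M228 replicate 2 (adjusted p = 0.0503). CST6 lost it without M228 replicate 1 (0.0707) or replicate 3 (0.0611). ELFN2 lost it without any 1 of the 3 M228 libraries (adjusted p = 0.0611 to 0.109), M303 replicate 2 (0.0554) or M379 replicate 3 (0.0609). AQP3 lost it without M228 replicate 1 (0.0707), M228 replicate 2 (0.0968), M303 replicate 2 (0.0569), M303 replicate 3 (0.0545), M379 replicate 2 (0.0605) or M379 replicate 3 (0.0825). EHD2 kept it without M228 replicate 1 or M303 replicate 1 only, with adjusted p = 0.0545 to 0.216 without each of the others, and lost it when the 6 libraries shared 1 mean (0.159).

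A further 8 genes fell short of the call without pairing but had every M303 and M379 library apart from every M228 library, and each was called in the paired model. Their separation was a condition for choosing them. REG1A, a secreted lectin of regenerating gut epithelium, stood at 199, 305 and 200.0 CPM with M228, 462, 589 and 389 CPM with M303 and 519, 639 and 426 CPM with M379. The same step from M228 was seen at each replicate number, and the paired difference was 1.11 ± 0.064 (adjusted p = 3.35e-15, against 0.0801 without pairing). CALD1, the actin-binding protein caldesmon, stood at 2.37, 2.68 and 2.60 CPM with M228, 6.45, 7.5 and 8.66 CPM with M303 and 3.95, 3.51 and 5.64 CPM with M379. M303 was highest in all 3 replicates, and the paired difference of both from M228 was 1.20 ± 0.17 (adjusted p = 6.81e-06, against 0.0801 without pairing). The heparan sulfate proteoglycan gene GPC4 (0.71 ± 0.093), the desmosomal cadherin gene DSG3 (0.62 ± 0.079), the adrenergic receptor gene ADRA2A (0.65 ± 0.10) and the β-catenin cofactor gene BCL9 (0.54 ± 0.075) were also higher in the paired model.

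Of the 8, 2 were lower. CEACAM5, the carcinoembryonic antigen, stood at 632, 717 and 566 CPM with M228, 446, 478 and 402 CPM with M303 and 425, 449 and 452 CPM with M379. All 6 values were below the lowest M228 library, and the paired difference was -0.52 ± 0.06 (adjusted p = 1.34e-07, against 0.0801 without pairing). ASPH, an aspartyl hydroxylase of the endoplasmic reticulum, differed by -0.49 ± 0.058 (adjusted p = 1.99e-07, against 0.0801 without pairing). Without pairing, leaving out M303 replicate 1 brought DSG3 (adjusted p = 0.0444), REG1A (0.042) and CALD1 (0.042) to a call, as did leaving out M303 replicate 3 for DSG3 (0.0246).

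DUOX2 and DUOXA2 were among the genes with the lowest paired differences. DUOX2 is the dual oxidase that releases hydrogen peroxide at the gut surface, and DUOXA2 is the partner it needs to mature. DUOX2 stood at 101, 56.3 and 22.3 CPM in M228 replicates 1, 2 and 3, at 33.1, 14.6 and 8.19 CPM in those of M303 and at 12.9, 11.2 and 8.01 CPM in those of M379. Replicate 1 was high and replicate 3 low in every mutant, so that M303 replicate 1 was above M228 replicate 3, yet M228 was highest at each number. The difference was -2.08 ± 0.43 without pairing (adjusted p = 0.152, not called) and -1.99 ± 0.12 with it (adjusted p = 3.35e-15). DUOXA2 stood at 9.67, 9.73 and 2.54 CPM, 3.70, 1.39 and 0.426 CPM and 0.670, 1.23 and 0.534 CPM in the same order. It too was highest with M228 at each number, with a paired difference of -2.52 ± 0.23 (adjusted p = 3.95e-10, against 0.161 without pairing), and 27.7% of its exon bases overlap a gene on the opposite strand. DUOXA2 rested on 9 to 151 reads per mutant library.

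The DUOXA2 promoter window is shown because the pair is divergent: the 2 RefSeq starts lie 154 bases apart on opposite strands. The DUOXA2 window is chr15:45114076-45114375, plus strand (GRCh38.p14), and 253 of its 300 bases also belong to the DUOX2 window, chr15:45114123-45114422, minus strand. Neither window holds AACAAT or ACAAAG, and the sequence carries no capitals.
DUOXA2: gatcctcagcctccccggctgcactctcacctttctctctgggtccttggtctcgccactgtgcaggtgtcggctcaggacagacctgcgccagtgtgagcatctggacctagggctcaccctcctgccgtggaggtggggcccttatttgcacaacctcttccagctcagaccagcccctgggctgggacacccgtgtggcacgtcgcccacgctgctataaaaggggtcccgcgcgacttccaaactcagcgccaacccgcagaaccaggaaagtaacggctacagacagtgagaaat

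HPGD, which breaks down prostaglandins, stood at 167, 125 and 62.6 CPM with M228, 60.7, 41.2 and 37.3 CPM with M303 and 57.7, 42.8 and 30.9 CPM with M379. The lowest M228 library was only just above the highest of the others, while at each replicate number M228 was clearly highest, and the paired difference was -1.33 ± 0.081 (adjusted p = 1.28e-14, against 0.141 without pairing). DKK1, a secreted inhibitor of WNT signalling, stood at 27.9, 54.3 and 38.4 CPM with M228, 8.72, 24.8 and 24.3 CPM with M303 and 13.1, 20.9 and 24.6 CPM with M379. Replicate 1 was low in all 3 mutants, and M228 was again highest at each number, with a paired difference of -1.08 ± 0.10 (adjusted p = 3.06e-09, against 0.42 without pairing). The proteoglycan gene VCAN (-1.33 ± 0.14), the annexin gene ANXA10 (-1.34 ± 0.10) and the endothelial-type junction gene JCAD (-1.19 ± 0.096) were lower as well. IGFBP2, which binds insulin-like growth factors, went the other way, with 1.86, 1.55 and 3.16 CPM with M228, 5.10, 9.85 and 15.8 CPM with M303 and 5.22, 8.64 and 12.1 CPM with M379. All 6 libraries were above all 3 of M228, and the paired difference was 2.01 ± 0.17 (adjusted p = 6.08e-11, against 0.151 without pairing). The tetraspanin gene TSPAN7 (1.30 ± 0.20) and the receptor gene FGFR4 (0.55 ± 0.063) were also higher. DUOX2, DUOXA2, HPGD, DKK1 and IGFBP2 kept their paired calls whichever of the 9 libraries was left out.

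**Figure D3:**
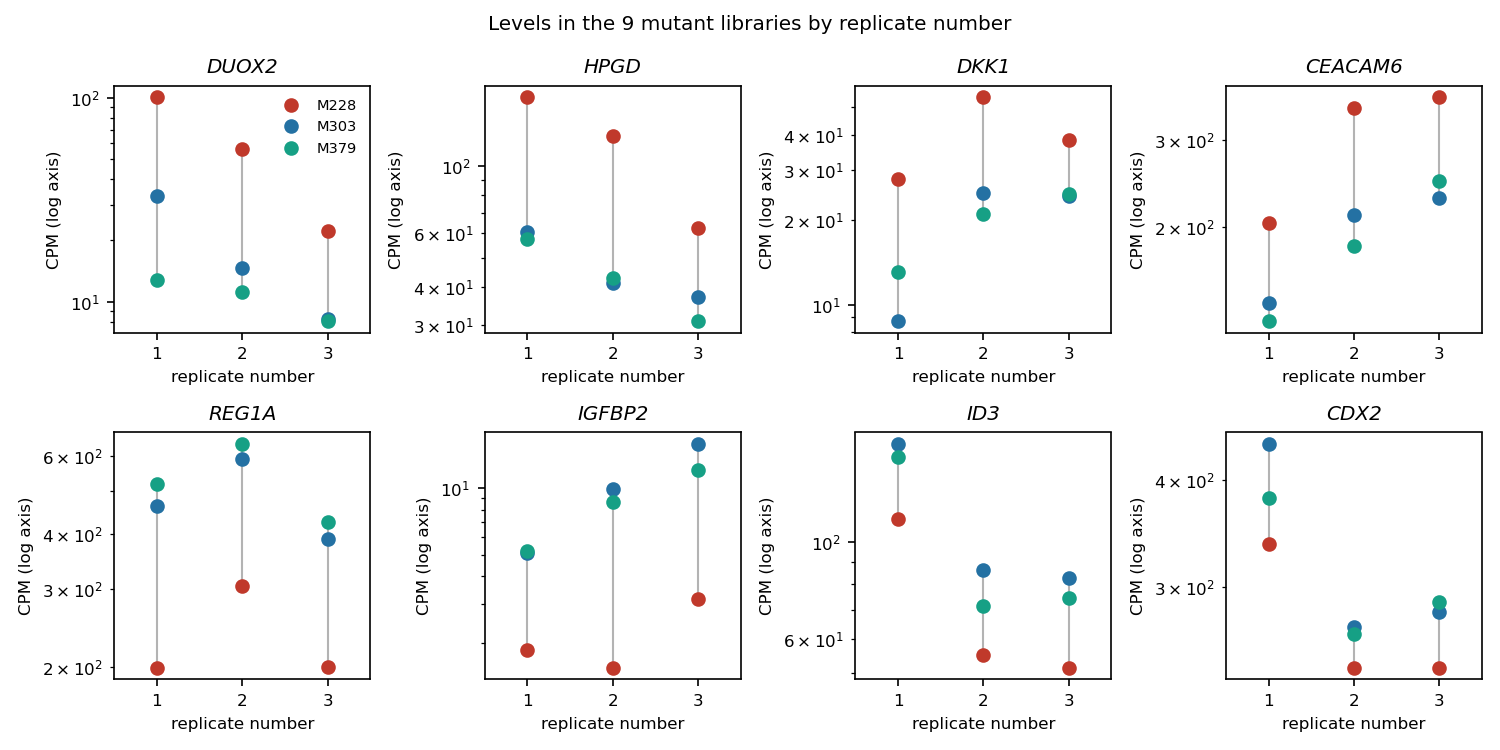
CPM on log axes (y) of 8 genes in the 9 mutant libraries, by replicate number (x), with 1 point per library and a grey line joining the 3 mutants at a number. For DUOX2, the M228 libraries range over 22.3 to 101 CPM, and M228 is the highest point at each number.

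M303 and M379 were next set separately against M228, with the same 3 M228 libraries in both. Without pairing 9 genes (0.0568%) were called for M303 and 8 (0.0505%) for M379, and in the paired model 458 (2.89%) and 749 (4.73%). Leaving out 1 library gave 0 (without M228 replicate 2) to 9 genes for M303 and 3 (without M228 replicate 2 or M379 replicate 3) to 12 for M379, and in the paired model 182 (without M228 replicate 1) to 552 and 260 (without M379 replicate 2) to 981. COL9A3 was 2.59 ± 0.14 for M303 and 2.31 ± 0.15 for M379 in the paired model. GPC4 was 0.71 ± 0.10 and 0.71 ± 0.10. The mutants themselves differed by 0.27 ± 0.10 (adjusted p = 0.487) for COL9A3, which does not show that they act alike. For VCAN, lower with M379, the values were -0.95 ± 0.15 and -1.72 ± 0.17, and the mutants differed (adjusted p = 0.0423). That call was lost with DESeq2 and the block (0.176) and without M228 replicate 3 (0.07), M303 replicate 2 (0.0985), M303 replicate 3 (0.137), M379 replicate 1 (0.306) or M379 replicate 2 (0.66).

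**Figure D4:**
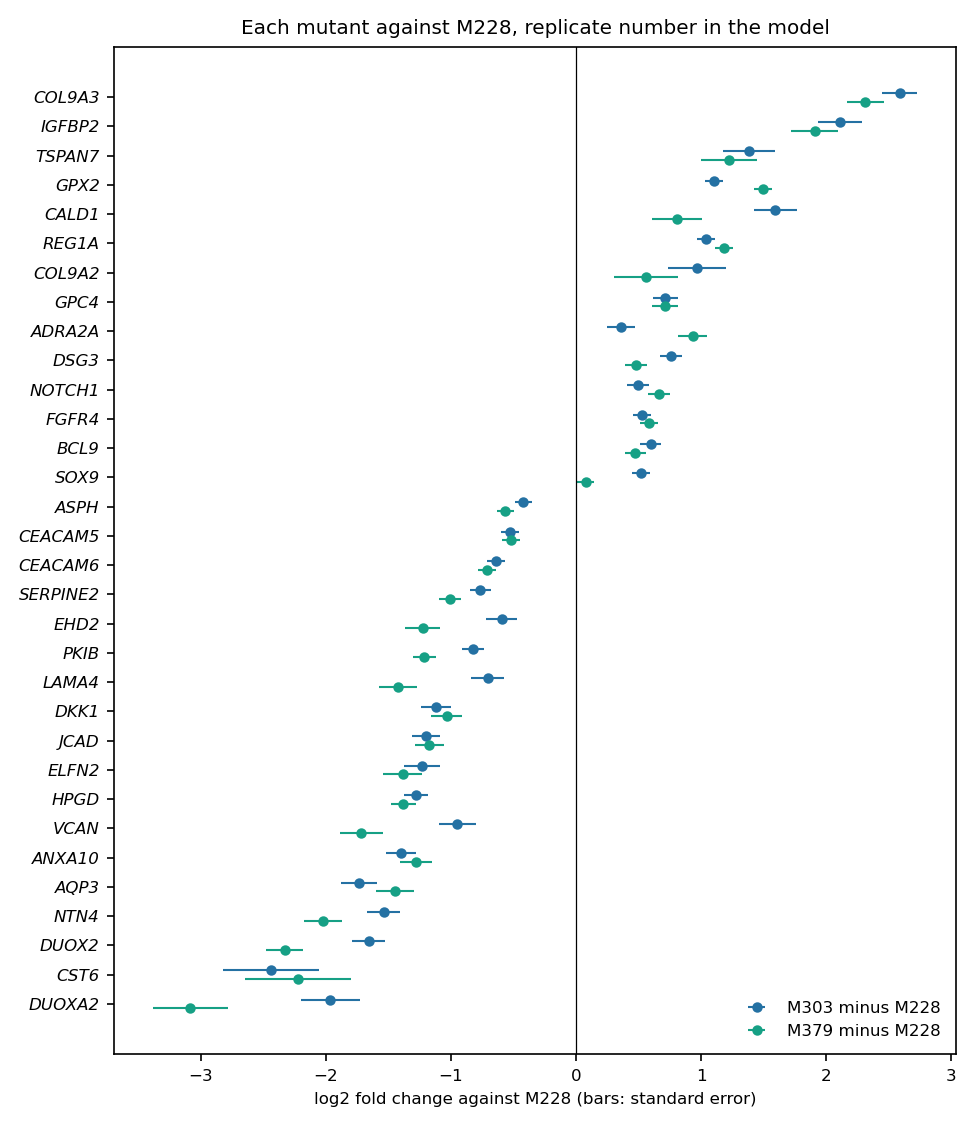
Log2 fold change against M228 in the paired model (x), with standard errors as bars, for M303 and M379 and 32 named genes (y), sorted by the joint difference. The genes were chosen on the joint difference and both mutants share the M228 libraries, so an equal sign in both is largely fixed by that choice. COL9A3 is at the top and DUOXA2 at the bottom, and SOX9 is at 0.52 with M303 and near 0 with M379.

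M303 and M379 were also compared with each other. No gene (0%) was called without pairing, with 205 genes at an unadjusted p under 0.05, and DESeq2 and limma voom called 1 gene each. The paired model called 28 genes (0.177%), 20 of them higher with M303. SOX9 itself was higher with M303, by 0.44 ± 0.07 (adjusted p = 0.00177, and 0.0671 without M379 replicate 1). HLA-H stood at 35.6, 33.9 and 33.0 CPM with M303, 20.8, 21.4 and 18.2 CPM with M379 and 19.8, 19.6 and 19.5 CPM with M228. M303 alone was high among the mutants, by 0.76 ± 0.086 over M379 (adjusted p = 3.16e-06). GFP ranged over 27.8 to 48.1 CPM and SOX9_WT over 29.7 to 36.1 CPM. M303 thus stood near these controls, and M228 and M379 stood below them. HLA-H is a pseudogene close in sequence to other HLA genes, and 31.8% of its exon bases overlap a gene on the opposite strand, so its counts are uncertain. GPX2 was lower with M303 than with M379 (-0.39 ± 0.069, adjusted p = 0.00555), so that M379 stood farther from M228. The same held for ADRA2A (-0.57 ± 0.10, adjusted p = 0.00555), and EHD2 was nearer to M228 with M303 (0.63 ± 0.14, adjusted p = 0.0315). CALD1 was the reverse, farther from M228 with M303 (0.79 ± 0.15, adjusted p = 0.0101). SBSPON (16.8, 18.5 and 17.6 CPM with M303 and 27.3, 24.8 and 28.3 CPM with M379) and UTS2B (6.54, 3.35 and 4.40 and 2.14, 1.88 and 2.20 CPM) also differed, by -0.61 ± 0.097 and 1.19 ± 0.19. The paired count was 2 without M379 replicate 1, 8 without M303 replicate 1, 9 without M228 replicate 3 and 10 without M379 replicate 2, and 44 to 47 without M303 replicate 2, M303 replicate 3 or M379 replicate 3. Single calls moved likewise: without M303 replicate 1 the adjusted p was 0.0759 for GPX2, 0.0981 for ADRA2A and UTS2B, and 0.327 for EHD2, and without M379 replicate 2 it was 0.329 for CALD1, 0.247 for EHD2 and 0.0804 for ADRA2A. Without M379 replicate 1 it was 0.0671 for SBSPON, 0.0718 for ADRA2A and 0.111 for GPX2, CALD1, EHD2 and UTS2B. EHD2 also lost its call without M228 replicate 3 (0.0768) or M379 replicate 3 (0.201), CALD1 without M303 replicate 2 (0.0703) and GPX2 without M303 replicate 3 (0.0503). With DESeq2 and the block the adjusted p was 0.134 for CALD1 and 0.177 for EHD2.

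Gene lists were read by the counts of the paired model, beside 2.32% of all genes higher and 3.03% lower, and a median log2 difference of 0.0036 over all genes. The lists were written with earlier results of these data known, so their shares are descriptive. Without pairing the lists held 3 called genes, COL9A3 and NTN4 among them. Of 22 tested genes of the enterocyte brush border and of differentiated enterocytes, 9 were lower and 1 was higher (median -0.24). Without pairing, the list median against M228 was -0.0365 for M303 and -0.381 for M379, so the median shift was mostly that of M379. CEACAM6, a surface antigen of the CEACAM family, stood at 204, 349 and 366 CPM with M228, 141, 212 and 229 CPM with M303 and 129, 183 and 248 CPM with M379. It was lowest at number 1 in each mutant and highest with M228 at each number, with a difference of -0.68 ± 0.062 (adjusted p = 6.19e-10, against 0.501 without pairing). The microvillus cadherin gene CDHR2 (-0.82 ± 0.15), TM4SF20 (-0.61 ± 0.068), CEACAM5, KRT20 and the peptidase gene DPP4 (-0.37) were lower too. The glucose transporter gene SLC5A1 was higher (0.45). In RNA from whole cultures, fewer cells of a type and less RNA per cell cannot be told apart.

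Of 17 tested crypt stem cell genes, 6 were higher and 1 lower (median 0.18), and 11 had a positive difference. The stem cell receptor gene LGR5 was not called and had a negative difference at each replicate number (-0.101, -0.122 and -0.103). ASCL2, a transcription factor of LGR5-positive stem cells, stood at 33.6, 33.1 and 32.3 CPM with M228, 42.6, 34.5 and 38.6 CPM with M303 and 46.0, 48.4 and 44.0 CPM with M379. All 6 libraries were above all 3 of M228, although M303 replicate 2 only slightly, and the difference was 0.36 ± 0.076 (adjusted p = 0.00228, 0.075 without M228 replicate 1 and 0.0535 in replicates 2 and 3 only). LRIG1, a brake on EGF receptors (0.33 ± 0.067), MYB (0.27 ± 0.07) and EPHB2 (0.23) were higher and SOX4 was lower (-0.25). The call was lost for LRIG1 without M228 replicate 1 (adjusted p = 0.0636) and for MYB without M228 replicate 3 (0.178). EPHB2 lost it without M228 replicate 1 (0.145), M228 replicate 2 (0.276) or M379 replicate 1 (0.0679). SOX4 lost it without M228 replicate 1 (0.143), M228 replicate 2 (0.423), M303 replicate 1 (0.0653), M303 replicate 2 (0.0507), M379 replicate 2 (0.0878) or M379 replicate 3 (0.0552), and without a filter on low counts (0.054). Of 8 tested cartilage targets of SOX9, 2 were called, both higher: COL9A3, and its partner chain gene COL9A2 (0.76 ± 0.22, adjusted p = 0.0347). COL9A2 lost its call without any 1 of 6 libraries: M228 replicate 1 (adjusted p = 0.481), M228 replicate 2 (0.0595), M228 replicate 3 (0.065), M303 replicate 1 (0.146), M379 replicate 2 (0.0954) or M379 replicate 3 (0.0549). It was also lost with DESeq2 and the block (0.134) and with 1 mean for the 6 libraries (0.0546).

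Among signalling genes, 13 of 14 tested Notch pathway genes had a positive difference and 2 were called, both higher (median 0.20), against 1 with DESeq2 and 5 with voom. The receptor gene NOTCH1 stood at 88.5, 76.2 and 109 CPM with M228, 102, 145 and 144 CPM with M303 and 139, 144 and 154 CPM with M379. M228 was lowest at each replicate number, though M228 replicate 3 overlapped M303 replicate 1, and the difference was 0.58 ± 0.079 (adjusted p = 3.73e-06, against 0.206 without pairing). LFNG, which adds sugars to Notch receptors, was the other (0.23 ± 0.069, adjusted p = 0.0361), and its call was lost without M228 replicate 1 (0.0762), M228 replicate 2 (0.316), M228 replicate 3 (0.105), M303 replicate 3 (0.091), M379 replicate 1 (0.0925) or M379 replicate 2 (0.09), with DESeq2 and the block (0.0607) and with 1 mean for the 6 libraries (0.0918). Of 21 tested genes of BMP and TGF-β signalling, 3 were higher and 4 lower. The higher ones, ID3 (0.55 ± 0.065), ID1 (0.42 ± 0.067) and SMAD6 (0.39), respond to BMP, while the lower ones held the ligand genes BMP7 (-0.43 ± 0.074), BMP4 (-0.22) and TGFB1 (-0.66) and the BMP antagonist gene GREM1 (-0.34). BMP4 lost its call without any 1 of the 3 M228 libraries (adjusted p = 0.0543 to 0.0966), and TGFB1 without M228 replicate 1 (0.106) or M228 replicate 2 (0.0877) and with 1 mean for the 6 libraries (0.0622). ID3 stood at 113, 55.1 and 51.5 CPM with M228, 168, 86.3 and 83.0 CPM with M303 and 156, 71.2 and 74.3 CPM with M379, highest at number 1 in each mutant.

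Of 21 tested WNT feedback and target genes, 3 were higher and 2 lower: the inhibitor DKK1 was lower, and NKD2, an inhibitor inside the cell, was higher (0.37 ± 0.073). Of 21 tested WNT and planar polarity receptors and ligands, 3 were called, all higher, WNT11 (0.82 ± 0.14) among them. Of 19 tested genes of MAPK output, 2 were higher and 6 lower. The ETS factor genes ETV5 (0.66 ± 0.12) and ETV4 (0.36 ± 0.068) were the higher ones, and the phosphatase gene DUSP5 (-0.46 ± 0.094) and PHLDA1 (-0.36 ± 0.07) were among the lower. Those 2 calls were lost without M228 replicate 3 (DUSP5, adjusted p = 0.12) and without M228 replicate 2 (PHLDA1, 0.134). DUSP5 also lost it with DESeq2 and the block (0.105) and with 1 mean for the 6 libraries (0.0535). Of 19 tested NF-κB targets, 5 were called, all lower, with the chemokine gene CXCL8 at -0.65 ± 0.095 (adjusted p = 1.46e-05) and the apoptosis inhibitor gene BIRC3 at -0.34 ± 0.07 (adjusted p = 0.00174, and 0.132 without M228 replicate 1). The median of the NF-κB list against M228, without pairing, was -0.0987 for M303 and 0.0452 for M379.

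Of 28 tested genes of collagens, laminins and matrix, 5 were higher and 6 lower. NTN4 led the lower ones, followed by LAMA4, a laminin chain of vessel basement membranes, which stood at 11.98, 11.6 and 7.84 CPM with M228, 7.94, 6.31 and 4.83 CPM with M303 and 5.09, 3.83 and 2.73 CPM with M379. M379 was lowest and M228 highest at each replicate number, with a joint difference of -1.06 ± 0.12 (adjusted p = 1.36e-07). Fibroblast markers summed to 6.49 to 8.39 CPM with M228, 5.27 to 8.39 CPM with M303 and 5.40 to 6.10 CPM with M379, with PDGFRA at 0 in all 9, and their part in these values was not tested. The epithelial laminin chain genes LAMB3 (-0.45 ± 0.058) and LAMA3 (-0.38) were lower too, the latter not without M228 replicate 1 (adjusted p = 0.0685). Of 16 tested integrins, 4 were lower and 1 higher. The lower ones held ITGA9 (-0.64 ± 0.10) and ITGA3 (-0.25 ± 0.059), the latter a laminin receptor chain whose call was lost without M228 replicate 3 (adjusted p = 0.0593). Of 35 tested axon guidance genes, 5 were higher and 8 lower. The lower ones held the secreted semaphorins SEMA3F (-0.60 ± 0.075), SEMA3D (-0.57 ± 0.13) and SEMA3A (-0.55 ± 0.096), and the higher ones the plexin receptor genes PLXND1 (0.52) and PLXNA1 (0.26). SEMA3F stood at 48.2, 42.5 and 44.2 CPM with M228, 32.6, 25.3 and 27.6 CPM with M303 and 39.6, 26.4 and 27.0 CPM with M379, every M228 library above the rest. SEMA3D lost its call without M228 replicate 1 (adjusted p = 0.277), and PLXNA1 without M228 replicate 1 (0.105) or M228 replicate 2 (0.36).

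Of 24 tested proteases and kallikreins, 7 were higher, among them KLK10 (0.26), KLK11 (0.27) and TMPRSS4 (0.35), and 3 were lower, among them MMP7 (-0.37). The call was lost without M228 replicate 1 for KLK10 (adjusted p = 0.172) and KLK11 (0.273), without M228 replicate 2 for KLK11 (0.0555) and MMP7 (0.107), and with DESeq2 and the block for MMP7 (0.0813). Of 37 tested gut and liver metabolic enzymes, 5 were higher and 6 lower. The ketosteroid reductase gene AKR1C1 was lower (-0.63 ± 0.11), and the tyrosine breakdown gene HGD was higher (0.90 ± 0.16). Of 7 tested Paneth cell genes, 2 were higher, the induced SOX9 itself and the lysozyme gene LYZ (0.46 ± 0.068), and 3 were lower. The list median was -0.23 and only 3 of the 7 had a positive difference, so these 2 do not stand for the list. LYZ, with 34.7% of its exon bases overlapping a gene on the opposite strand, stood at 1013, 835 and 635 CPM with M228, 1554, 943 and 808 CPM with M303 and 1437, 1096 and 1019 CPM with M379. It was lowest with M228 at each number and below every SOX9_WT library (2568 to 3551 CPM) in all 9. Of 19 tested YAP and TEAD targets, 2 were called, both lower, the tissue factor gene F3 (-0.64 ± 0.062) and the ecto-nucleotidase gene NT5E (-0.58 ± 0.072).

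Lists of general cell functions had 0% to 7.69% of tested members called in edgeR's paired model, beside 5.35% of all genes tested. The share was 7.69% for mitochondrially encoded genes and 7.14% for cholesterol and fatty acid synthesis, so these counts do not set the lists apart from all genes. Voom gave more calls for some of them. Of 48 tested ribosomal protein genes, edgeR's paired model called 0, with 4 at an unadjusted p under 0.05, and DESeq2 and voom with the block called 1 each. Of 24 tested mitosis genes it called 0, with 2 at an unadjusted p under 0.05, while DESeq2 called 0 and voom 1. Of 29 tested DNA replication genes, 1 was called. Of 13 mitochondrially encoded genes, all had a negative difference and 1 was called (median -0.1, and 0.011 without pairing in replicates 2 and 3 only). Of 28 genes of cholesterol and fatty acid synthesis, 23 had a positive difference and 2 were called, both higher (median 0.11), with 13 at an unadjusted p under 0.05. For that list DESeq2 with the block called 1 gene and voom with the block 11.

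**Figure D5:**
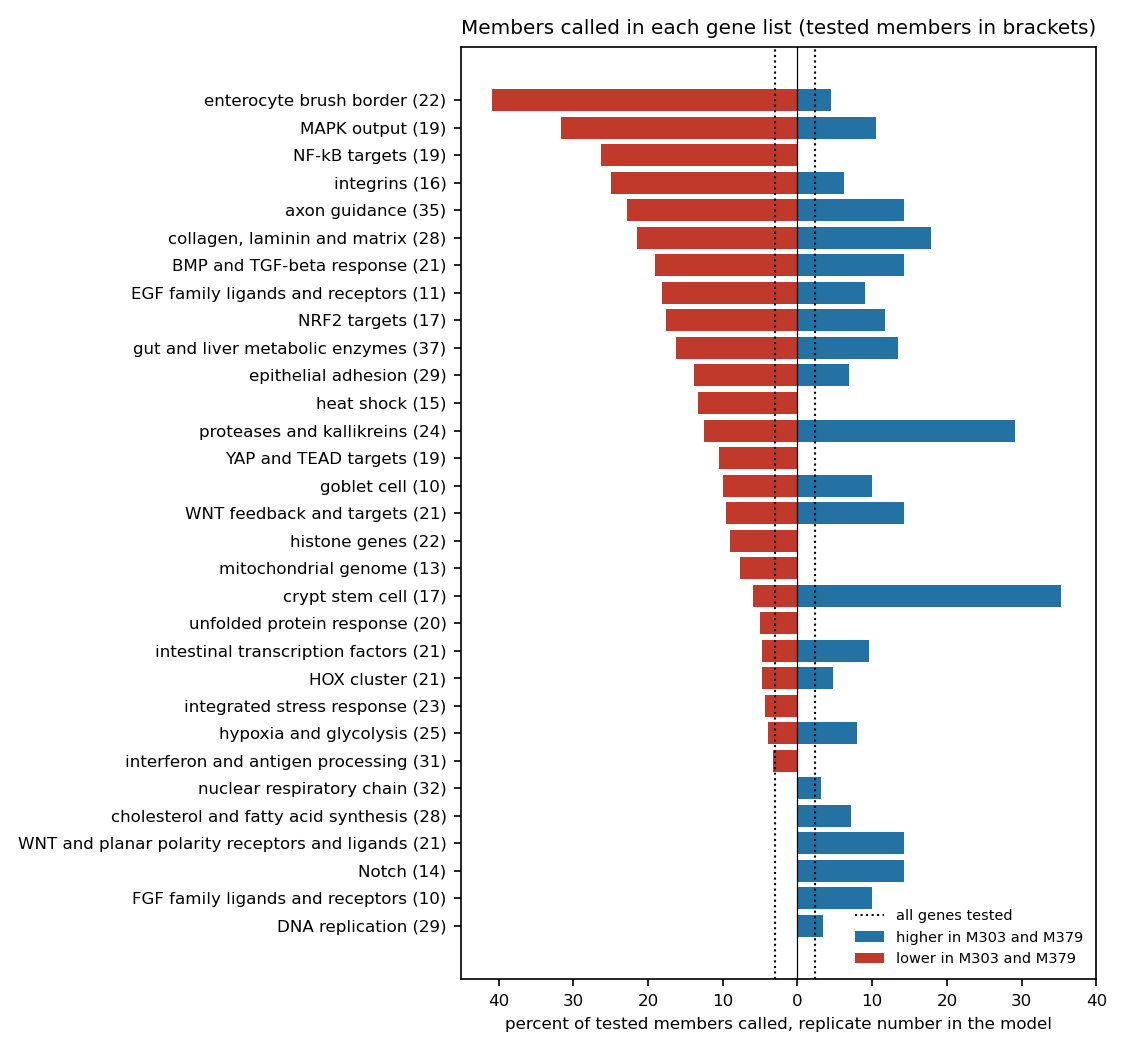
Percent of the tested members of each gene list called higher (blue, right) or lower (red, left) with M303 and M379 in the paired model, for lists with at least 10 tested members and 1 call. The dotted lines mark 2.32% and 3.03%, the shares over all genes tested; enterocyte genes reach 9 of 22 lower and crypt stem cell genes 6 of 17 higher.

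Markers followed by name gave mixed values. KRT20, a keratin of differentiated colon cells, stood at 745, 1100 and 709 CPM with M228, 644, 732 and 598 CPM with M303 and 604, 665 and 651 CPM with M379. M228 replicate 2 stood highest and M228 replicate 3 overlapped the others, and the difference was -0.39 ± 0.13 (adjusted p = 0.536, not called) without pairing and -0.37 ± 0.068 with it (adjusted p = 0.000456, but 0.112 without M228 replicate 2 and 0.0919 with DESeq2 and the block). CDX2, an intestinal identity factor, differed by 0.23 ± 0.18 without pairing (adjusted p = 0.875) and by 0.22 ± 0.06 with it (adjusted p = 0.0211), a call lost without M228 replicate 1 (0.267), M228 replicate 3 (0.0742), M303 replicate 1 (0.0787) or M379 replicate 3 (0.0765). Its level was highest at number 1 in each mutant, with 337, 241 and 242 CPM in M228, 441, 269.5 and 280.3 CPM in M303 and 381, 264 and 288 CPM in M379. Neither model called the stem cell receptor gene LGR5 (-0.11 ± 0.11 without pairing), the stem cell surface gene PROM1 (0.15 ± 0.19) or the proliferation gene MKI67 (0.022 ± 0.13). LGR5 covered 38.4 to 46.4 CPM with M228 and 35.1 to 48.2 CPM with M303 and M379, and MKI67 497 to 675 and 504 to 698 CPM.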

How the data were processed

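RNA of 15 HT115 libraries was sequenced, and the 9 of M228, M303 and M379 entered the tests. The submitters' processing notes name STAR 2.7.0a and the hg38 build. The deposited values are raw gene-level counts from featureCounts 2.0.1 on the Ensembl 101 annotation (GRCh38), per the file headers. The command recorded there has neither a strand nor a paired-end option, so mates count as separate reads and both strands count together. Gene starts and ends are those of the file, also per its header lines. In the deposited normalized table, 3 columns match no sample label, and that table was not used here.

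Of 60671 genes, 42020 received a symbol by their Ensembl number and 15848 passed edgeR's expression filter (filterByExpr) over the 9 libraries. TMM factors came from all 15 libraries. A mean per group was fitted with edgeR 4.0.16 quasi-likelihood methods (R 4.3.3, 6 residual degrees of freedom), and the mean of M303 and M379 was tested against M228, two-sided, with Benjamini-Hochberg adjustment over all genes and a threshold of 0.05. The scripts were tested on simulated data in which the changed genes were known. Values after ± are standard errors of log2 fold changes, or SD where stated. A gene with no read could still be present at up to 0.0895 to 0.423 CPM, the level of 3 reads, counting error only. That limit takes reads as independent, whereas mates count separately here, so the true limit lies higher.

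Equal replicate numbers were taken to pair libraries because all 9 correlations of same-numbered libraries' deviations from their group means exceeded 0.1 (0.19 to 0.603). These correlations are not independent, since deviations sum to 0 within a group and each library enters more than 1 pair. Libraries of different numbers were not correlated for comparison. The labels do not say what a number marks. The paired model adds replicate number as a block and leaves 4 residual degrees of freedom, and the median dispersion was 0.00468 with it and 0.018 without.

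The genes named are SOX9, the called genes that have a symbol, reach 1 in mean log2 CPM and separate all 6 libraries from all 3, filled to 8 per direction by the lowest unadjusted p, at most 4 called genes per list, and the markers KRT20, CDX2, LGR5, PROM1 and MKI67. No gene met the rule for M303 against M379. The comparison, the rule and the 45 gene lists were chosen with earlier results of these data known. Some genes that the rule or the lists would name, among them 1 of the 10 called genes, are not reported here. No list was given a set test. Promoter windows came from RefSeq (GRCh38.p14). Alternatives were DESeq2 1.42.0, limma 3.58.1 voom, other scalings and filters, a length correction, subsets of replicates and leaving out each library.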

Additional observations from a re-analysis of the deposited data

Results flagged for a closer look

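Each result below is a difference between M303 and M379 in the model with replicate number, for genes also read against M228, so it tests whether the 2 mutants' differences from M228 are unequal. None was called without pairing (adjusted p of 0.107 for HLA-H and 1 for the others in edgeR's quasi-likelihood test). Higher with M303 were SOX9 (0.445, adjusted p = 0.00177), HLA-H (0.763, adjusted p = 3.16e-06), UTS2B (1.19, adjusted p = 0.00179), CALD1 (0.787, adjusted p = 0.0101), EHD2 (0.633, adjusted p = 0.0315), the laminin gene LAMA4 (0.716, adjusted p = 0.0275), the proteoglycan gene VCAN (0.768, adjusted p = 0.0423) and the fatty acid desaturase gene SCD (0.716, adjusted p = 0.00875). Lower with M303 were GPX2 (-0.39, adjusted p = 0.00555), ADRA2A (-0.57, adjusted p = 0.00555) and SBSPON (-0.61, adjusted p = 0.00177). The SCD value rests on M303 replicate 1, which stood at 556 CPM against 128 and 148 CPM in replicates 2 and 3, and without it the adjusted p was 0.346. The SCD call was also lost without M228 replicate 3 (0.139), M379 replicate 1 (0.391) or M379 replicate 2 (0.0656), with DESeq2 and the block (1) and in replicates 2 and 3 only (0.462). With DESeq2 and the block the calls of CALD1 (0.134), EHD2 (0.177), LAMA4 (0.137) and VCAN (0.176) were lost as well. LAMA4 lost its call without M228 replicate 3 (0.077), M303 replicate 1 (0.216), M379 replicate 1 (0.111), M379 replicate 2 (0.264) or M379 replicate 3 (0.0769), and VCAN without M228 replicate 3 (0.07), M303 replicate 2 (0.0985), M303 replicate 3 (0.137), M379 replicate 1 (0.306) or M379 replicate 2 (0.66).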

How the results depend on the processing

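Counts of called genes depended on the model. For M303 with M379 against M228 the 10 calls became 848 with the replicate block, 1018 with the block and a length correction, 102 with DESeq2, 17 with voom, 195 without a filter and 83 in replicates 2 and 3 only, and 6 to 22 when 1 library was left out. For M303 against M228 the 9 calls became 458 with the replicate block, 604 with block and length, 29 with DESeq2, 110 without a filter, 2 with all 15 libraries in the fit, 31 in replicates 2 and 3 and 0 to 9 when 1 library was left out. For M379 against M228 the 8 calls became 749, 886, 68 and 153 in the first 4 of these settings, 63 in replicates 2 and 3 and 3 to 12 when 1 library was left out. For M303 against M379 the 0 calls became 28 with the block, 50 with block and length, 1 with DESeq2, 1 with voom and 13 without a filter. The cause of these changes was not tested.

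The alternatives to the paired model were chosen after seeing the data. Its 848 calls became 405 in replicates 2 and 3, 1420 with voom and 314 to 1023 when 1 library was left out. Its 458 for M303 became 211 in replicates 2 and 3, 277 with DESeq2 and 182 to 552 when 1 library was left out. Its 749 for M379 became 446 in replicates 2 and 3, 1290 with voom and 260 to 981 when 1 library was left out. Its 28 between M303 and M379 became 78 without a filter, 8 in replicates 2 and 3, 50 with a length correction, 8 with DESeq2 and 2 to 47 when 1 library was left out.

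SOX9 was called with the block (0.298) and with block and length (0.283). Without M228 replicate 3, PROM1 was -0.0124, and its values ranged up to 0.477 over single omissions. MKI67 was -0.0939 without M228 replicate 2, -0.0244 without M303 replicate 2 and -0.0342 without M379 replicate 3, and up to 0.117 over single omissions. No other recomputed gene difference changed sign. Of 89 named gene differences of the paired model, 21 lost their call in replicates 2 and 3 only (adjusted p = 0.0535 to 0.462), 10 of 88 with DESeq2 (0.0607 to 1), 5 of 77 with 1 mean for the 6 libraries (0.0535 to 0.0918), 1 without a filter (0.054) and 0 with voom, with RLE factors or with a length correction. The median of all genes moved by less than 0.1 in each setting. The shallowest library held 7291596 reads, and CST6 and DUOXA2 rested on as few as 3 and 9 reads in a library.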
